A study of Homo sapiens with 4 samples.

Results

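The 34 genes described here encode enzymes that make, recycle and activate the purine and pyrimidine nucleotides of the cell, and a few of them, such as SAMHD1 and DUT, hydrolyse deoxynucleotides. They were taken from the 59652 genes of the count table by a list of gene names, which sets no limit on a measured value. By role they fall into 11 enzymes of de novo purine synthesis, 5 of de novo pyrimidine synthesis, 8 of deoxynucleotide supply, 7 of salvage and 3 kinases that phosphorylate nucleotides. RNA-seq was performed in Huh7 and PLC cells, hepatocellular carcinoma lines labelled wild type, to learn which transcripts respond to glucose. Glucose-free DMEM with fetal bovine serum was supplemented with 5 mM glucose (low glucose) or 25 mM glucose (high glucose), and the cells were kept in it for 48 h. Each line gave 1 library at each glucose level, so the 4 libraries hold no replicate and no difference between 2 of them has a replicate check. 

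Nucleotides are built in cells by routes that meet. De novo synthesis assembles the purine ring on ribose phosphate and the pyrimidine ring before it is joined to ribose phosphate, and it draws on amino acids, carbon dioxide and, for purines and thymidylate, folate-bound carbon units. Salvage enzymes recover free bases and nucleosides at a lower energy cost, and ribonucleotide reductase turns ribonucleotides into the deoxynucleotides of DNA. Several genes of deoxynucleotide supply, among them RRM2, TYMS and TK1, are textbook examples of genes transcribed mainly around S phase, when E2F factors are active. The liver is a major site of purine synthesis, and purine synthesis enzymes are commonly raised in proliferating tumour cells.

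The low-glucose and high-glucose libraries of Huh7 cells held 21376239 and 30085303 counted reads, and those of PLC cells held 30279716 and 16049686. The 34 genes together held between 0.285% and 0.319% of the reads of a library. Hepatocyte markers (10 genes) had a summed level of 5416 and 5605 FPKM in Huh7 cells and of 790 and 1668 FPKM in PLC cells, given as low then high glucose. In PLC cells the marker TTR had at most 0.0607 FPKM and AFP went from 306 to 1010 FPKM, and the part that this difference in hepatocyte markers has in the results was not tested. Fibroblast markers (5 genes) summed to between 0.725 and 1.36 FPKM, endothelial markers (4 genes) to between 0.122 and 2.55 FPKM, and leukocyte markers (5 genes) to between 4.24 and 39.8 FPKM, nearly all of it LYZ and CD14. CD3E and KDR were at 0 in all 4 libraries. FPKM, calculated here from the counts, is the number of reads scaled to the exon length of the gene and to the total of the library. Since the exon length of a gene merges all its annotated transcripts, the level of genes with long merged exons, such as ADSL, CTPS1 and RRM2, is understated against that of other genes, while the ratio of a gene between libraries is not affected.

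Upstream sequences are shown for RRM2, TYMS, DUT and TK1, the genes that were higher at 25 mM in both lines and that all have E2F-like letters before a start site, with RRM1 and GART as genes that have such letters and other ratios. The windows of 250 bases before each RefSeq start on GRCh38.p14 were searched on both strands for E2F-like letters (the form TTCCCGC, the form TTCGCGC, the form TTGCCGC or the form TTGGCGC), for the CCAAT box and for the E-box CACGTG. The stretch of RRM2 directly before its start, chr2:10122619-10122738 on the plus strand, holds CCAAT boxes (capitals), and the stretch of TYMS, chr18:657403-657652 on the plus strand, holds the E2F-like letters GCGGGAA in capitals, which read TTCCCGC on the other strand.
RRM2: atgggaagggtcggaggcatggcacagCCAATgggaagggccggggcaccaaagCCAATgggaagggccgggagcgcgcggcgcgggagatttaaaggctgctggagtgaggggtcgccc
TYMS: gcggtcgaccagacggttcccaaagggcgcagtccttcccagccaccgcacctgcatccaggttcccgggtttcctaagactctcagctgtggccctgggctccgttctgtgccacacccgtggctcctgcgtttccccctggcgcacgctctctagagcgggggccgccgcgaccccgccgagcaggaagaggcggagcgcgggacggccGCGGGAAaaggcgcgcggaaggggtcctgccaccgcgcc

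Sites of 27 bases with E2F-like letters in capitals follow for RRM2 (chr2:10122366-10122392, plus strand, before an alternative start), DUT (chr15:48332145-48332171 and chr15:48332161-48332187, plus strand, overlapping each other), TK1 (chr17:78187053-78187079, minus strand), RRM1 (chr11:4094452-4094478, plus strand) and GART (chr21:33542341-33542367, minus strand, before an alternative start).
RRM2 site: gggcccgcgcGCGCCAAggccgccgag
DUT site 1: ggcggggctgGCGGGAAatttcggttt
DUT site 2: aatttcggttTTGGCGCgctccctgcg
TK1 site: tttaaagcggtcggcGCGGGAAccagg
RRM1 site: aagaaaaacgTTCCCGCcggttaggtt
GART site: agcattTTGGCGCtcccccccggcgct

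Of 35116 windows in the whole table, 10.9% held E2F-like letters, 32% held CCAAT and 6.34% held the E-box. The 31 nucleotide genes with a window had 45 windows, of which 8 (17.8%) held E2F-like letters, 16 (35.6%) held CCAAT and 4 (8.89%) held the E-box. By gene, 8 of the 31 held E2F-like letters: RRM2, TYMS, DUT, TK1, RRM1, PAICS, GART and PRPS2. CCAAT was found for 12 of the 31 and the E-box for 4 (PPAT, ATIC, DHODH and DCTPP1). ADSL, IMPDH2 and RRM2B had no window in the table used. These matches describe letters and not bound sites, and GART, which carries a match, was lower at 25 mM in PLC cells.

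At 25 mM, the nucleotide genes that stood past the study's thresholds in both lines were RRM2, TK1, TYMS and DUT, and each was higher. All 4 serve the supply of deoxynucleotides for DNA. A gene was called past the thresholds where either library of a line had more than 0.5 FPKM and the ratio of high to low glucose, after 0.1 was added to both FPKM values, was over 1.5 or under 0.67. In Huh7 cells 4 of 33 genes that passed the FPKM minimum were higher (12.1%, against 14.1% of all 21864 genes tested) and 0 of 33 were lower (against 13.7%). In PLC cells 11 of 34 were higher (32.4%, against 26.2% of 21749 genes) and 3 of 34 were lower (8.82%, against 17.0%). In both lines 4 of 33 were higher (12.1%, against 5.30% of 18108 genes tested in both), and 0 were lower in both (against 3.82%). Of protein-coding genes alone, the higher and lower shares were 5.91% and 5.71% in Huh7 cells, against 18.8% and 11.5% in PLC cells. No nucleotide gene stood past the thresholds in opposite directions.

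The class with the highest median ratio in both lines was that of deoxynucleotide supply. Its median log2 ratio was 0.40 in Huh7 cells and 0.65 in PLC cells, where the medians of all tested genes were 0.04 and 0.11. De novo purine synthesis had medians of 0.16 in both lines, and de novo pyrimidine synthesis had medians of 0.14 and 0.23. Salvage stood at -0.24 in Huh7 cells and at 0.50 in PLC cells, and the kinases stood at -0.02 and -0.08. Scaling by TMM, which corrects for a shift common to most genes, moved the log2 ratios by -0.038 in Huh7 cells and by -0.116 in PLC cells, so that ratios of PLC cells close to 1 or to a threshold have to be read against that shift.

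**Figure D1:**
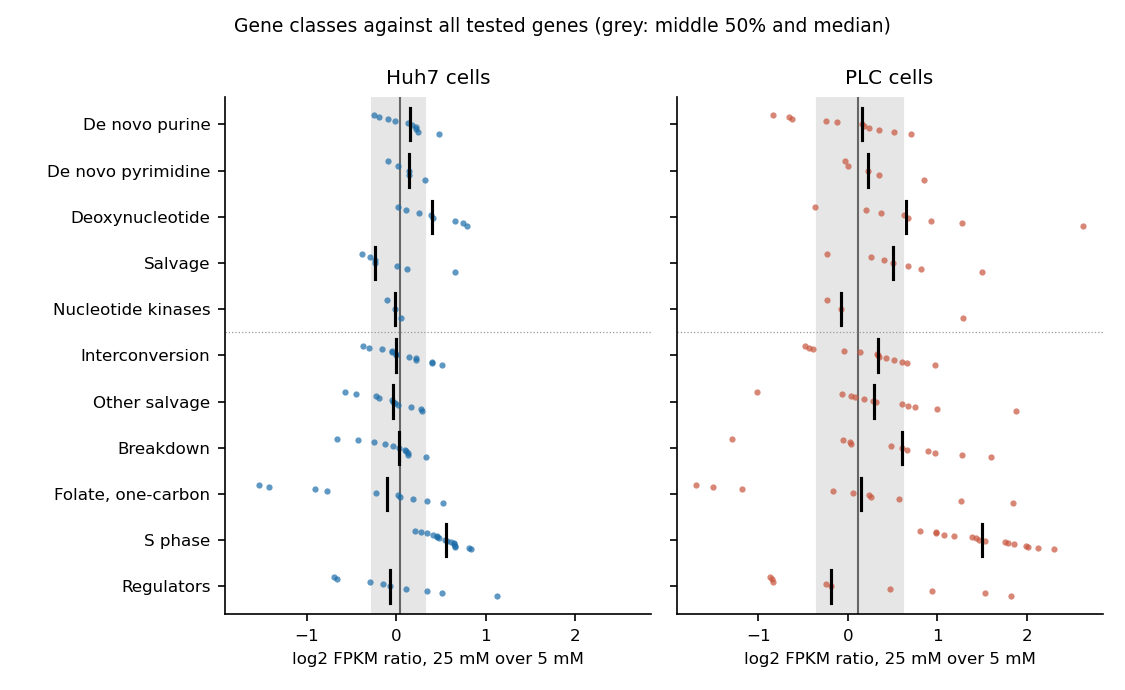
Log2 ratio of high to low glucose (x axis, after 0.1 was added to FPKM) of each gene over the FPKM minimum, by gene class, in Huh7 cells (blue, left) and PLC cells (red, right). Short black bars are class medians and the grey band and line are the middle 50% and the median of all tested genes. The deoxynucleotide class has the highest median of the 5 classes above the dotted line, at 0.40 and 0.65, and the S phase genes below it lie further right still.

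Among the genes of deoxynucleotide supply, 7 of 8 had a counting interval of the ratio above 1 in each line, with RRM2B as the gene outside in both. Of all the nucleotide genes, 18 of 33 in Huh7 cells and 23 of 34 in PLC cells had such an interval, and the share over all tested genes is not given here. With TMM the intervals of DTYMK in Huh7 cells (0.991 to 1.12) and of SAMHD1 in PLC cells (0.984 to 1.15) reached below 1. RRM2, the small subunit of ribonucleotide reductase that is made in dividing cells, had the highest ratio of the nucleotide genes in both lines. Its count went from 4172 reads to 10200 between the Huh7 libraries and from 584 reads to 1993 between the PLC libraries. On the FPKM scale these are levels of 21.3, 37.0, 2.11 and 13.6 in the same order. The PLC library at 5 mM was thus far below the other 3, and within each line the library at 25 mM was the higher. The FPKM ratio of high to low glucose was 1.74 in Huh7 cells (95% interval 1.68 to 1.80) and 6.44 in PLC cells (5.87 to 7.07). These intervals are exact binomial (Clopper-Pearson) ones, they leave out the added 0.1, and they cover counting error only. Whether the lines differ in their response could not be tested with 1 library per condition.

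RRM1, the large subunit of the same enzyme, moved less than RRM2. Its levels were 22.7 and 29.8 FPKM in Huh7 cells and 23.6 and 37.5 FPKM in PLC cells, with ratios of 1.31 (1.24 to 1.39) and 1.59 (1.51 to 1.68). The PLC ratio was past the threshold on library totals but was 1.47 with TMM. RRM2B, the small subunit induced by p53 that serves DNA repair and resting cells, had 6.94 and 7.05 FPKM in Huh7 cells and 12.5 and 9.65 FPKM in PLC cells. Its ratio was the lowest of the class in both lines, at 1.02 (0.927 to 1.11) and 0.773 (0.713 to 0.839).

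TYMS, which methylates dUMP to dTMP, gave 438 and 971 reads in Huh7 cells, with 525 and 676 in the PLC libraries. Its levels were 8.46 and 13.3 FPKM in Huh7 cells and 7.16 and 17.4 FPKM in PLC cells. Both libraries at 25 mM stood above both at 5 mM, and the lines were close to each other at each glucose level. The ratios were 1.58 (1.41 to 1.77) and 2.43 (2.16 to 2.73). Of the TYMS exon bases, 47.5% also lie in exons of ENOSF1 or TYMSOS on the opposite strand. ENOSF1 had ratios of 0.902 and 1.17, whereas TYMSOS had 12, 32, 17 and 32 reads, in the order Huh7 then PLC and 5 mM then 25 mM. The use of strand in the counting is not stated, and without it reads of such partners cannot be told apart.

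DUT, which hydrolyses dUTP and so keeps uracil out of DNA, had levels of 3.79 and 6.46 FPKM in Huh7 cells and 6.06 and 11.6 FPKM in PLC cells. The counts were 298, 714, 674 and 684 reads, and the last pair was nearly equal although the PLC library at 25 mM was the shallowest of the 4. DUT had ratios of 1.70 (1.49 to 1.96) and 1.91 (1.72 to 2.13). An opposite-strand gene, AC023355.1, covers 14.5% of its exon bases and had at most 84 reads.

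The other enzymes of the class were closer to the bulk of genes. DTYMK, which phosphorylates dTMP, had 35.2 and 38.1 FPKM in Huh7 cells and 18.5 and 28.6 FPKM in PLC cells, and its PLC ratio of 1.55 (1.43 to 1.68) became 1.42 with TMM. DCTPP1, a pyrophosphatase that clears dCTP and modified dCTP, had 13.5 and 17.9 FPKM in Huh7 cells and 24.5 and 31.7 FPKM in PLC cells, with ratios of 1.33 and 1.29. Of its exon bases, 40.3% overlap ZNF771 on the opposite strand, whose ratios were 1.60 and 1.04. SAMHD1, the hydrolase that degrades dNTPs outside S phase, had 2.28 and 2.72 FPKM in Huh7 cells and 5.49 and 6.34 FPKM in PLC cells, with ratios of 1.19 and 1.15.

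**Figure D2:**
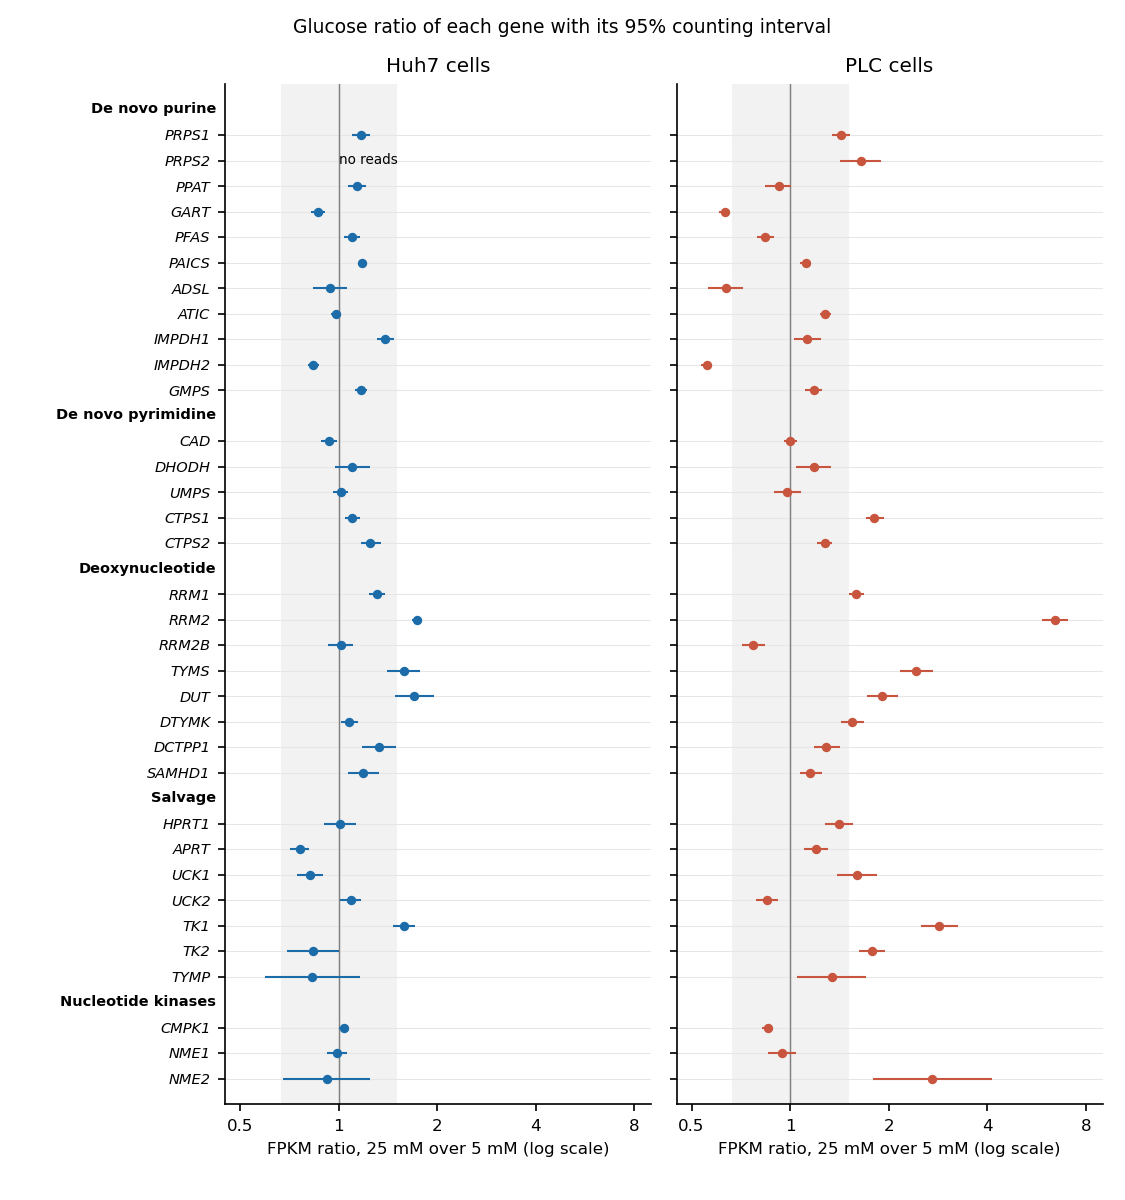
FPKM ratio of 25 mM over 5 mM glucose (x axis, log scale) of each nucleotide gene (y axis, by class) in Huh7 cells (left) and PLC cells (right), with 95% exact binomial intervals as bars. The shaded zone runs from 0.67 to 1.5. In Huh7 cells the 4 points right of it are RRM2, TYMS, DUT and TK1, and in PLC cells RRM2 lies furthest right at 6.44 and IMPDH2 furthest left at 0.557.

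In salvage, TK1 was higher at 25 mM in both lines, while the other 6 genes of the class did not pass a threshold in Huh7 cells. TK1, the cytosolic thymidine kinase of dividing cells, gave 959 and 2135 reads in Huh7 cells, with 405 and 613 in the PLC libraries. Its levels were 24.3 and 38.5 FPKM in Huh7 cells and 7.25 and 20.7 FPKM in PLC cells, and the PLC library at 5 mM was again the lowest. The ratios were 1.58 (1.47 to 1.71) and 2.86 (2.51 to 3.25). TK2, the mitochondrial thymidine kinase that works independently of the cell cycle, had 1.49 and 1.24 FPKM in Huh7 cells and 4.26 and 7.58 FPKM in PLC cells. Its Huh7 ratio was 0.835 (0.697 to 1.0) and its PLC ratio was 1.78 (1.62 to 1.95), and 25% of its exon bases are shared with unnamed antisense and sense transcripts.

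UCK1 and UCK2 phosphorylate uridine and cytidine. UCK1 had 14.6 and 11.9 FPKM in Huh7 cells and 5.38 and 8.59 FPKM in PLC cells, so the library at 25 mM was the lower in Huh7 cells and the higher in PLC cells. Its ratios were 0.819 (0.745 to 0.899) and 1.60 (1.39 to 1.84), the latter 1.47 with TMM. UCK2, the form often raised in tumours, had 8.02 and 8.75 FPKM in Huh7 cells and 10.5 and 8.89 FPKM in PLC cells. The ratio in PLC cells, 0.850 (0.788 to 0.916), was the lowest of the class in that line.

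The purine base salvage enzymes HPRT1 and APRT did not pass a threshold in either line. HPRT1, which returns hypoxanthine and guanine to the nucleotide pool, had 15.2 and 15.3 FPKM in Huh7 cells and 19.8 and 28.0 FPKM in PLC cells. APRT, which does the same for adenine, had 44.5 and 33.9 FPKM in Huh7 cells and 24.8 and 29.8 FPKM in PLC cells. Its Huh7 ratio, 0.762 (0.713 to 0.814), was the lowest of all 33 genes with a ratio in that line. TYMP, the thymidine phosphorylase, was the least abundant of the class, at 0.910 and 0.757 FPKM in Huh7 cells and 1.52 and 2.04 FPKM in PLC cells, with wide intervals.

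De novo purine synthesis did not move as a block. In Huh7 cells the ratios of the 10 genes with reads ran from 0.838 for IMPDH2 to 1.39 for IMPDH1, and none passed a threshold. In PLC cells GART, ADSL and IMPDH2 were lower and PRPS2 was higher. GART, which carries several steps of the pathway on a single protein, had 17.5 and 15.1 FPKM in Huh7 cells and 49.3 and 31.1 FPKM in PLC cells. Its ratios were 0.867 (0.825 to 0.911) and 0.631 (0.608 to 0.654). IMPDH2, the main form of the rate-limiting enzyme of GMP synthesis in dividing cells, had 68.9 and 57.7 FPKM in Huh7 cells and 145 and 80.7 FPKM in PLC cells, with ratios of 0.838 (0.804 to 0.874) and 0.557 (0.536 to 0.578). For both genes the library at 25 mM was the lower in each line, and the PLC library at 5 mM was the highest of the 4.

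ADSL, which acts at a step of the ring assembly and again in AMP synthesis, had only 1.98 and 1.86 FPKM in Huh7 cells and 3.10 and 1.97 FPKM in PLC cells on its merged exon length. Its ratios were 0.940 (0.833 to 1.06) and 0.636 (0.562 to 0.718). IMPDH1, the second IMP dehydrogenase, had 20.1 and 28.0 FPKM in Huh7 cells and 10.4 and 11.8 FPKM in PLC cells. Where IMPDH2 was lower at 25 mM, IMPDH1 was therefore higher in both lines, at 1.39 (1.31 to 1.48) and 1.13 (1.03 to 1.24), though the PLC ratio was 1.04 with TMM.

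PPAT and PAICS did not pass a threshold in either line. PPAT, the amidotransferase of the committed step, had 14.1 and 16.1 FPKM in Huh7 cells and 8.56 and 7.89 FPKM in PLC cells. PAICS, which carries the sixth and seventh steps and lies head to head with PPAT on chromosome 4, had 41.2 and 48.7 FPKM in Huh7 cells and 27.1 and 30.2 FPKM in PLC cells. The ratios were 1.14 and 0.922 for PPAT and 1.18 and 1.12 for PAICS. Within a library PPAT stood at between 0.261 and 0.343 of the PAICS level, and the lowest of these values was that of PLC cells at 25 mM (0.240 to 0.283).

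PFAS, the fourth enzyme of the pathway, had 15.6 and 17.1 FPKM in Huh7 cells and 18.0 and 15.1 FPKM in PLC cells. ATIC, which closes the ring to give IMP, was among the most abundant, at 62.0 and 61.0 FPKM in Huh7 cells and 52.8 and 67.4 FPKM in PLC cells. GMPS, which turns XMP into GMP, had 16.9 and 19.8 FPKM in Huh7 cells and 11.6 and 13.7 FPKM in PLC cells, with ratios of 1.17 and 1.18. PRPS1, which makes the ribose phosphate donor PRPP, had 20.0 and 23.4 FPKM in Huh7 cells and 23.1 and 32.9 FPKM in PLC cells, with ratios of 1.17 (1.10 to 1.25) and 1.43 (1.34 to 1.52). Steps of a single pathway thus lay on either side of 1 within the same library pair.

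In de novo pyrimidine synthesis only CTPS1 in PLC cells passed a threshold. CTPS1, a CTP synthase linked to lymphocyte proliferation, had 10.1 and 11.1 FPKM in Huh7 cells and 6.14 and 11.2 FPKM in PLC cells, with ratios of 1.10 (1.05 to 1.16) and 1.81 (1.71 to 1.93). At 25 mM the level in PLC cells was close to that of both Huh7 libraries, and at 5 mM it stood below them. The related CTPS2 had 10.1 and 12.7 FPKM in Huh7 cells and 22.5 and 28.7 FPKM in PLC cells, with ratios of 1.25 (1.17 to 1.35) and 1.28 (1.21 to 1.34).

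CAD, the multifunctional enzyme that starts the pathway, had 12.3 and 11.5 FPKM in Huh7 cells and 22.1 and 22.2 FPKM in PLC cells. Its Huh7 ratio of 0.938 (0.887 to 0.992) was the lowest of the class in that line. UMPS, which completes UMP, had 15.0 and 15.2 FPKM in Huh7 cells and 5.66 and 5.56 FPKM in PLC cells, and its PLC ratio of 0.982 (0.893 to 1.08) was the lowest of the class there. DHODH, the mitochondrial dehydrogenase of the pathway, was the least abundant of the class, at 2.82 and 3.11 FPKM in Huh7 cells and 3.35 and 3.95 FPKM in PLC cells. UMPS and CAD differed between the lines far more than between the glucose levels.

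The 3 kinases differed widely in level. CMPK1, which phosphorylates UMP and CMP, was abundant in all libraries, at 68.6 and 71.1 FPKM in Huh7 cells and 70.2 and 60.1 FPKM in PLC cells, with ratios of 1.04 and 0.855 (0.822 to 0.889). NME1, a nucleoside diphosphate kinase, had 20.2 and 19.9 FPKM in Huh7 cells and 12.0 and 11.3 FPKM in PLC cells. NME2 gave 78 and 101 reads in Huh7 cells, with 41 and 59 in the PLC libraries, with ratios of 0.920 (0.678 to 1.25) and 2.71 (1.79 to 4.15). Exons of the readthrough gene NME1-NME2 cover 24.2% of the NME2 bases and 18.7% of the NME1 bases on the same strand, and this gene was listed at 0 reads in all 4 libraries. The values of NME1 and NME2 are therefore uncertain.

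**Figure D3:**
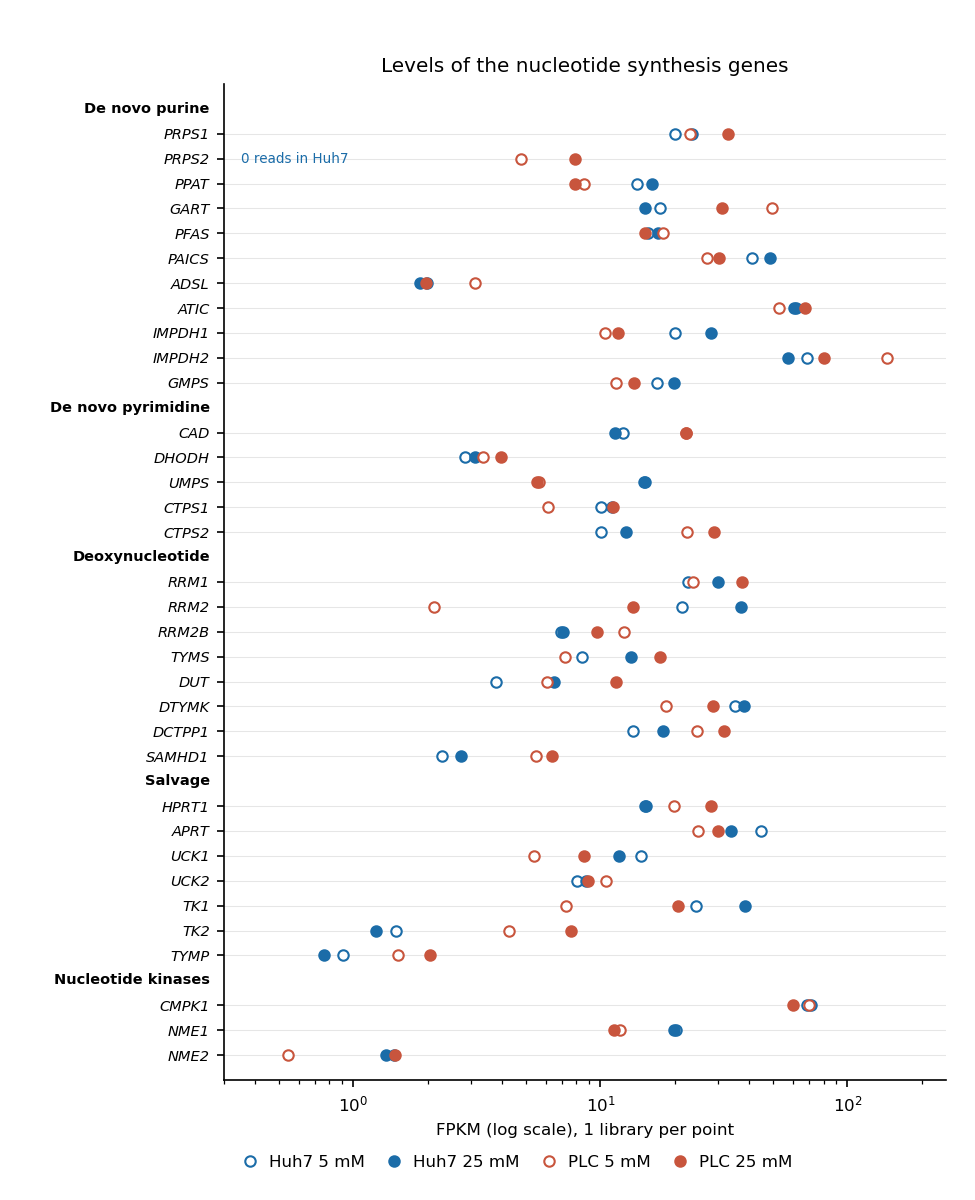
FPKM (x axis, log scale) of each nucleotide gene (y axis, by class) in the 4 libraries, with Huh7 cells in blue, PLC cells in red, 5 mM as open and 25 mM as filled circles. RRM2 in PLC cells at 5 mM, at 2.11 FPKM, stands apart from its other 3 libraries, and PRPS2 had 0 reads in Huh7 cells.

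Whether the lines shared a glucose change was asked of the counts of all 4 libraries with edgeR's quasi-likelihood test, with cell line as a second term, and p-values were adjusted over 23217 genes (Benjamini-Hochberg). This fit has 1 residual degree of freedom and takes the lines as the replicates, which they are not. Of all genes, 0.0646% were higher and 0.314% lower at 25 mM at an adjusted p under 0.05. Of the 34 nucleotide genes, 0 passed in either direction, and 6 had an unadjusted p under 0.05 (against 1975 of all 23217 genes). DESeq2 called 1 of the 34, RRM2, and limma called 0. By each of these tools 7 of the 34 had an unadjusted p under 0.05, against 1098 (DESeq2) and 2261 (limma) of all 23217 genes. RRM2 had a log2 fold change of 1.65 (SE 0.35) and an adjusted p of 0.0708 with edgeR, which ran from 1.27e-07 to 1 over the 6 alternatives. TK1 followed at 1.0 (SE 0.27, adjusted p 0.156), TYMS at 0.89 (SE 0.27, adjusted p 0.248) and DUT at 0.77 (SE 0.27, adjusted p 0.339). IMPDH2 and GART had negative values, -0.63 (SE 0.22, adjusted p 0.364) and -0.52 (SE 0.22, adjusted p 0.511). All 6 had the same direction in both lines, which a low p in this test nearly requires, so it adds no support.

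Ratios between 2 genes of the same library do not depend on the scaling of libraries. In Huh7 cells RRM2 stood at 3.07 times the level of RRM2B at 5 mM (2.85 to 3.32) and at 5.25 times that level at 25 mM (4.94 to 5.59). In PLC cells the same ratio was 0.169 at 5 mM (0.154 to 0.185) and 1.41 at 25 mM (1.30 to 1.53), and none of these intervals met. The merged exons of RRM2 have 9155 bases and those of RRM2B 5391, which sets the size of this ratio but not its change between glucose levels, so which small subunit was the more abundant is uncertain. Against the large subunit RRM1, RRM2 stood at 0.938 and 1.24 in Huh7 cells and at 0.0894 and 0.361 in PLC cells.

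TK1 against TK2 was higher at 25 mM in both lines as well, at 16.3 and 31.0 in Huh7 cells and at 1.70 and 2.73 in PLC cells. For IMPDH1 against IMPDH2 the values were 0.292 and 0.485 in Huh7 cells, against 0.0716 and 0.146 in PLC cells, and none of these counting intervals met within a line. IMPDH2 had more reads than IMPDH1 in all 4 libraries. CTPS1 against CTPS2 went from 0.995 to 0.875 in Huh7 cells and from 0.274 to 0.389 in PLC cells, and with 11164 merged exon bases for CTPS1 against 5531 for CTPS2 the order of their levels is uncertain. The balance of UCK1 and UCK2 moved in opposite directions, from 1.82 to 1.36 in Huh7 cells and from 0.514 to 0.966 in PLC cells.

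**Figure D4:**
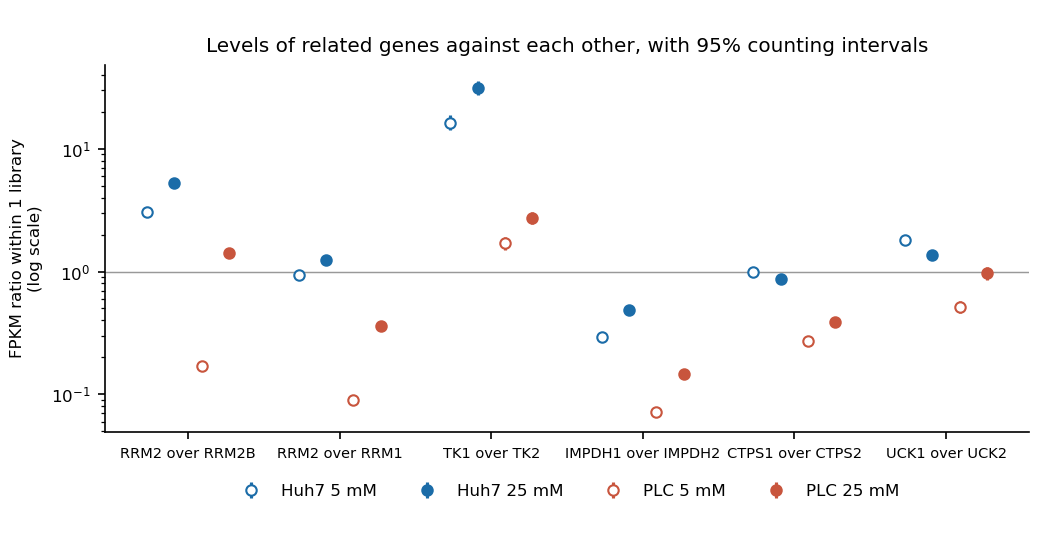
FPKM ratio of related genes within 1 library (y axis, log scale) for 6 gene pairs (x axis), with Huh7 cells in blue, PLC cells in red, 5 mM open and 25 mM filled, and 95% counting intervals as bars, most of them smaller than the points. RRM2 over RRM2B goes from 0.169 to 1.41 in PLC cells, and IMPDH1 over IMPDH2 is higher at 25 mM in both lines.

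As among all genes, more of the nucleotide genes passed the test between the lines than the test between the glucose levels. The test between the lines used edgeR, with both glucose levels as the libraries of a line. This test has 1 residual degree of freedom and takes the glucose levels as the replicates of a line, which they are not. Its adjusted p-values therefore rest on no replicate cultures. The model also takes the difference between the lines as equal at both glucose levels. The ratios of RRM2, TK1 and TK2 given below differed between the glucose levels. Of the 34 genes, 9 were higher in Huh7 cells (against 21.8% of all 23217 genes) and 11 were higher in PLC cells (against 21.1%). Higher in Huh7 cells were RRM2, UMPS, TK1, IMPDH1, PPAT, NME1, UCK1, PAICS and DTYMK. Higher in PLC cells were PRPS2, TK2, GART, CTPS2, SAMHD1, CAD, IMPDH2, DCTPP1, DUT, TYMP and RRM2B. Genes of single enzymes of a pathway went either way, as PPAT and PAICS stood with the Huh7 cells and GART with the PLC cells.

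RRM2 had a log2 difference of Huh7 against PLC cells of 2.38 (SE 0.35, adjusted p 0.000125), and its FPKM ratio of Huh7 to PLC cells was 10.1 at 5 mM (9.28 to 11.1) but 2.73 at 25 mM (2.60 to 2.87). TK1 showed the same narrowing, from 3.35 (2.98 to 3.78) to 1.86 (1.70 to 2.04), with a log2 difference of 1.31 (SE 0.27, adjusted p 0.00158). UMPS kept its distance, at 2.65 and 2.74, with a log2 difference of 1.42 (SE 0.23, adjusted p 0.000246). IMPDH1, at 1.10 (SE 0.24, adjusted p 0.00228), and UCK1, at 0.95 (SE 0.29, adjusted p 0.0183), were the next highest in Huh7 cells. PPAT followed at 0.87 (SE 0.24, adjusted p 0.00944), NME1 at 0.78 (SE 0.24, adjusted p 0.0162), DTYMK at 0.66 (SE 0.24, adjusted p 0.0361) and PAICS at 0.64 (SE 0.20, adjusted p 0.0202).

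On the PLC side, TK2 had a log2 difference of -2.07 (SE 0.31, adjusted p 0.000146) and was 2.86-fold higher in PLC cells at 5 mM and 6.10-fold higher at 25 mM. GART followed at -1.27 (SE 0.22, adjusted p 0.000449), SAMHD1 at -1.25 (SE 0.24, adjusted p 0.00103) and CTPS2 at -1.17 (SE 0.22, adjusted p 0.000869). CAD stood at -0.90 (SE 0.21, adjusted p 0.00396), DCTPP1 at -0.85 (SE 0.25, adjusted p 0.0151) and IMPDH2 at -0.79 (SE 0.22, adjusted p 0.0123). Closer to the limit of the test were TYMP at -1.09 (SE 0.38, adjusted p 0.0345), DUT at -0.77 (SE 0.27, adjusted p 0.0324) and RRM2B at -0.65 (SE 0.25, adjusted p 0.0466).

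PRPS2, the second gene for PRPP synthetase, at 12791355 to 12824222 on chromosome X (hg38), had the smallest adjusted p of the 34 genes in the test between the lines. It gave 0 reads in both Huh7 libraries and 400 and 349 reads in PLC cells, or 4.79 and 7.88 FPKM, a PLC ratio of 1.65 (1.42 to 1.90). A count of 0 allows up to 0.0509 FPKM at 5 mM and 0.0362 FPKM at 25 mM in Huh7 cells, if 3 reads are taken as the limit per library. PRPS2 was thus at least 94.1-fold higher in PLC cells at 5 mM and at least 218-fold higher at 25 mM (edgeR, adjusted p 1.72e-07). PRPS1 was measured in both lines, at 4.82 and 4.18 times the PRPS2 level in PLC cells. Neighbouring genes on X, chosen after their values were seen, showed part of the same pattern, in that FAM9C had 0 and 0 reads in Huh7 cells, with 1527 and 891 in the PLC libraries and TMSB4X had 443 and 459 against 32708 and 25216. MSL3, further upstream, had 280 and 500 reads in Huh7 cells, with 1172 and 721 in the PLC libraries. Other neighbours did not show the pattern. HCCS had 1201 and 2060 reads in Huh7 cells, with 3600 and 1691 in the PLC libraries. TCEANC had 111 and 132 reads in Huh7 cells, with 96 and 71 in the PLC libraries. FRMPD4 and TLR7, the nearest genes on either side, had 0 reads in every library. The cause was not tested.

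**Figure D5:**
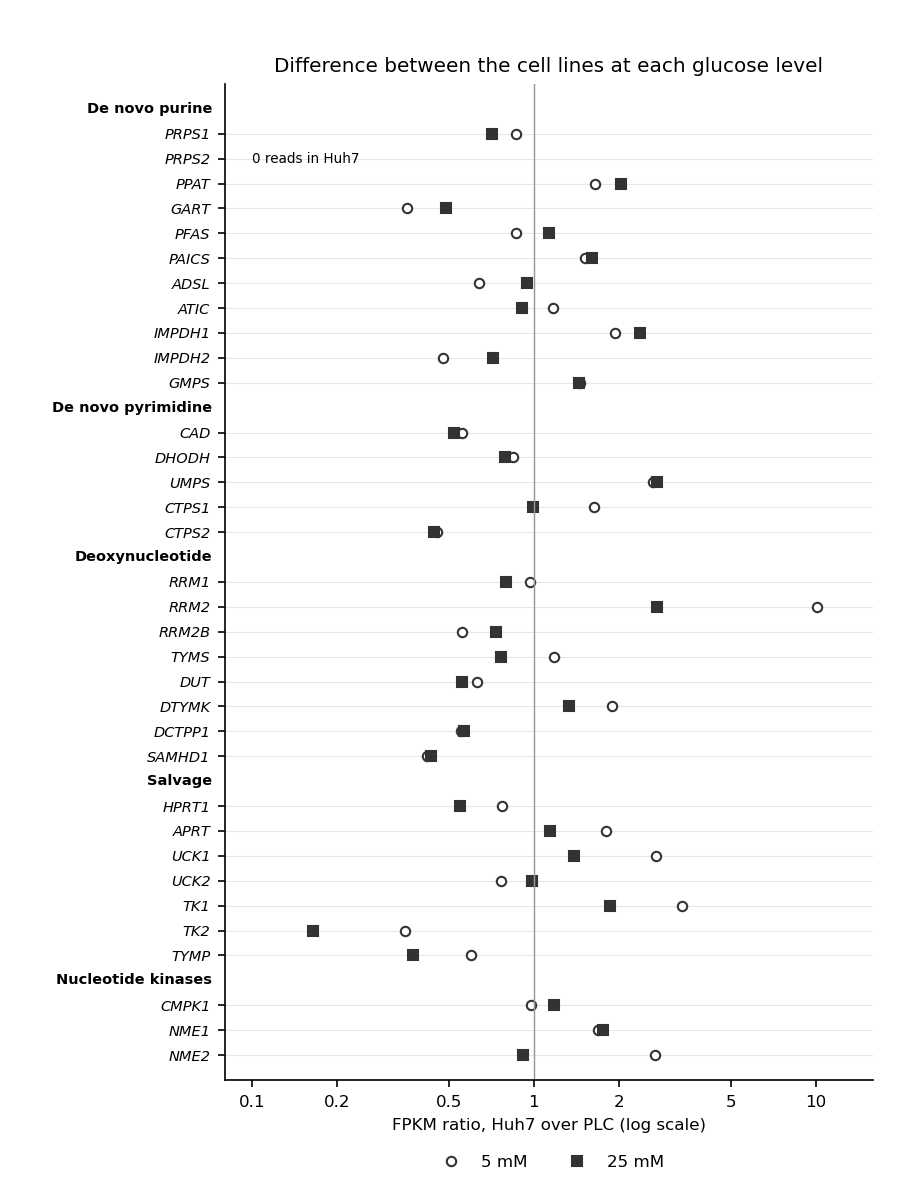
FPKM ratio of Huh7 over PLC cells (x axis, log scale) of each nucleotide gene (y axis) at 5 mM (open circles) and 25 mM (filled squares). RRM2 moves from 10.1 at 5 mM to 2.73 at 25 mM, TK2 lies furthest left at 25 mM, and UMPS, CAD and CTPS2 have nearly the same ratio at both glucose levels.

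Genes that work beside nucleotide synthesis were read from further lists. A list of 16 S phase genes was read, most of which replicate DNA or start replication. E2F1 is on this list and also among the regulators below. Of the 16, 7 were higher in Huh7 cells (against 14.1% of all genes) and 16 in PLC cells (against 26.2%). Their median log2 ratios were 0.56 and 1.49. In both lines 7 were higher (against 5.30%): MCM4, MCM5, MCM6, PCNA, CDC45, CCNE2 and FEN1. PCNA, the sliding clamp of DNA polymerase, had 93.6 and 148 FPKM in Huh7 cells and 26.2 and 104 FPKM in PLC cells. CDC45, a part of the replicative helicase, had 11.8 and 18.4 FPKM in Huh7 cells and 1.28 and 6.70 FPKM in PLC cells, a pattern like that of RRM2, with the PLC library at 5 mM lowest. In edgeR's shared test 0 of the 16 had an adjusted p under 0.05. An unadjusted p under 0.05 was found for 15 of them, against 1975 of all 23217 genes. DESeq2 called 3 (MCM4, MCM5 and PCNA) and limma called 0. The part that a share of cells in S phase has in the values of RRM2, TK1, TYMS and DUT was not tested, and in bulk RNA more cells that express a gene and more RNA per cell cannot be told apart.

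The mitochondrial folate enzymes MTHFD2, MTHFD1L and ALDH1L2 were lower at 25 mM in both lines. Of the 11 genes of this list 10 passed the FPKM minimum, and these 3 were the ones past the thresholds in both lines. Among all genes tested in both, 3.82% were lower in both. Over this list, 0 were higher and 4 lower in Huh7 cells (against 14.1% and 13.7% of all genes). In PLC cells 2 were higher and 3 lower (against 26.2% and 17.0%). MTHFD2 had 33.1 and 11.4 FPKM in Huh7 cells and 78.0 and 27.3 FPKM in PLC cells, with a shared log2 fold change of -1.61 (SE 0.21, adjusted p 0.00492). ALDH1L2 had 1.86 and 0.630 FPKM in Huh7 cells and 13.2 and 4.0 FPKM in PLC cells, at -1.73 (SE 0.25, adjusted p 0.00971), and MTHFD1L stood at -1.06 (SE 0.22, adjusted p 0.0696). These adjusted p-values are from edgeR. DESeq2 called MTHFD2, MTHFD1L and ALDH1L2, and limma called MTHFD2 alone. SHMT2, also mitochondrial, was lower in Huh7 cells (ratio 0.530, 0.514 to 0.547) but had a PLC ratio of 1.04 (0.995 to 1.09).

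Of 9 regulators, MYC and ATF4 were lower in both lines (against 3.82% of all genes tested in both) and E2F2 was higher in both (against 5.30%). MYC, a known activator of nucleotide synthesis genes, had 35.3 and 22.3 FPKM in Huh7 cells and 28.2 and 15.3 FPKM in PLC cells. ATF4, which drives amino acid synthesis genes and MTHFD2 under stress, had 144 and 89.1 FPKM in Huh7 cells and 213 and 119 FPKM in PLC cells. E2F2, an activator of S phase genes, had 1.82 and 4.13 FPKM in Huh7 cells and 2.36 and 8.58 FPKM in PLC cells. None of the 9 had an adjusted p under 0.05 in edgeR's shared test or by limma, while DESeq2 called MYC, ATF4 and E2F2. With edgeR 6 of the 9 had an unadjusted p under 0.05, against 1975 of all 23217 genes.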

How the data were processed

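RNA of 4 cultures was depleted of rRNA and made into directional libraries. The authors deposited counts, whole numbers of reads per gene without normalization, and the submitters' processing notes name HISAT2, featureCounts and hg38, with no versions. Which annotation release was used, and whether strand was, are not given in the sources used here. Of 59657 lines, 59652 were used, and 5 lines of a broken entry were left out.

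FPKM was calculated from the counts, the table's gene lengths and library totals, and 0.1 was added before ratios were taken. Intervals are 95% Clopper-Pearson, and the limit of a count of 0 is 3 reads, and both cover counting error only. The tests used edgeR 4.0.16 (TMM, filterByExpr, R 4.3.3), with DESeq2 1.42.0 and limma 3.58.1 as alternatives. The members, the lists and the tests were chosen with earlier results of these data known. Every member was named, with full statistics for those past a threshold or test and at the ends of each class. Other genes were mostly named where past the thresholds in both lines. SHMT2, GDA, FAM9C, TMSB4X, MSL3, HCCS, TCEANC, FRMPD4, TLR7 and the overlapping genes were chosen after their values were seen. E2F1 was named because it stands in both the S phase and the regulator list. Protein-coding genes were those whose symbol has that class in GENCODE release 44. Sequences are from RefSeq (GRCh38.p14), matched by symbol for 31 of 34 genes. The values of 1 gene of the folate list are not reported here. The edgeR test of a shared glucose change was also run on simulated counts. Alternatives were pseudocounts, scaling, FPKM minimum, thresholds and count filters.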

Additional observations from a re-analysis of the deposited data

Results flagged for a closer look

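For 5 of the nucleotide genes the ratio of high to low glucose lay on opposite sides of 1 in the lines, with both counting intervals away from 1. The share of all genes with such a pattern is not given here, so the number says nothing particular to the nucleotide genes. PFAS had 1.10 in Huh7 cells against 0.839 in PLC cells, and UCK2 had 1.09 and 0.850. CMPK1 had 1.04 and 0.855. APRT had 0.762 in Huh7 cells against 1.20 in PLC cells, and UCK1 had 0.819 and 1.60. With TMM scaling 3 of the 5 (PFAS, APRT and UCK1) still had intervals on opposite sides of 1. With 1 library per condition no test of a difference between the lines was possible, so it was not tested.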

How the results depend on the processing

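The number of genes higher in Huh7 cells, 4, became 0 with ratios over 2 or under 0.5, and in PLC cells the numbers became 4 higher in place of 11 and 0 lower in place of 3. RRM2, TYMS and TK1 stayed past these stricter limits in PLC cells, with NME2. Scaling by TMM or DESeq2 size factors took RRM1, DTYMK and UCK1 below 1.5 in PLC cells, and a pseudocount of 1 took ADSL above 0.67. The median log2 ratio of de novo purine synthesis in PLC cells became 0.04 with TMM, and that of deoxynucleotide supply 0.53 with TMM and 0.54 with DESeq2 size factors. In the shared test, the number of genes higher at 25 mM, 0, became 2 without a filter (RRM2 and TK1) and 1 with DESeq2 (RRM2). For the lines, the counts of 9 and 11 stayed within 1.5 times under all 6 alternatives, but DESeq2 no longer called RRM2B, DUT, UCK1 and TYMP, and leaving glucose out of the model left 6 and 8 and lost RRM2, TK1, IMPDH2, DTYMK, DUT and RRM2B. Ratios past a threshold and the named fold changes kept their direction under the alternatives run. With TMM, ratios near 1 crossed it, in Huh7 cells from 1.02 to 0.989 for RRM2B, from 1.02 to 0.990 for UMPS and from 1.01 to 0.981 for HPRT1, and the ratio of CAD in PLC cells became 0.920. No library could be left out, because each condition had 1, and the labels give no replicate numbers. The shared test compares the libraries within each line, and with cell line left out 0 genes passed and 52 of 23217 had an unadjusted p under 0.05, in place of 1975.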

Other observations

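Genes of nucleotide breakdown and of further salvage steps were also read. Of 14 breakdown genes, 11 passed the FPKM minimum in each line. Of those, 0 were higher and 1 was lower in Huh7 cells, and 6 were higher and 1 lower in PLC cells. Beside this list and the lists that follow, 14.1% of all tested genes were higher and 13.7% lower in Huh7 cells. In PLC cells these shares were 26.2% and 17.0%. GDA, which deaminates guanine, was the gene past the thresholds in opposite directions, at 3.34 and 2.07 FPKM in Huh7 cells (ratio 0.620, 0.548 to 0.701) and 2.23 and 6.95 FPKM in PLC cells (ratio 3.12, 2.80 to 3.48). Of 12 further salvage genes, 11 passed the FPKM minimum in Huh7 cells and 12 in PLC cells. Among these, 0 were higher and 1 was lower in Huh7 cells, and 5 were higher (CDA, DGUOK, ADA, SLC29A1 and SLC29A2) and 1 lower in PLC cells. UPP1, the uridine phosphorylase, was lower in both lines, as were 3.82% of all genes tested in both. Its levels were 6.16 and 4.09 FPKM in Huh7 cells and 34.1 and 16.7 FPKM in PLC cells. The shared log2 fold change of UPP1 was -0.89 (SE 0.24, adjusted p 0.160 with edgeR). Of 16 interconversion genes, 13 passed the FPKM minimum in each line. Among these, 0 were past a threshold in Huh7 cells and 3 were higher in PLC cells (against 26.2% of all genes). The median log2 ratio of the breakdown list was 0.03 in Huh7 cells and 0.60 in PLC cells, beside 0.04 and 0.11 for all genes.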
